A study of Mus musculus with 6 samples.

Results

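Autophagy genes encode the proteins that wrap a part of the cytoplasm in a membrane, close it as an autophagosome and deliver it to the lysosome. The genes described here are 40 listed members of this machinery, from the kinase complex that starts the process to the SNARE protein of the fusion step. They were matched by symbol to the gene column of a table with 23793 rows. Of the 40 listed genes, 39 were found by symbol and 37 had been tested by the authors. Rubcn, the remaining gene, was found under its older symbol 1700021K19Rik through the RefSeq synonyms. It is kept apart from the counts of tested and called genes unless stated, and is included in the promoter windows.

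The RNA was isolated from i660BM, a pro-B line of mouse strain C57BL/6. Cells of both groups carried a PU.1 gene that doxycycline switches on, and both grew with interleukin 7. PU.1, encoded by Spi1, is an ETS family transcription factor of myeloid and B cells. The induced group was 3 libraries made after 48 h of doxycycline at 70 ng/ml, and the non-induced group was 3 libraries from cells without induction. Doxycycline and PU.1 were changed together in this design, so their effects cannot be told apart. Every sample came from this 1 line, and nothing in the labels tells whether each library had its own culture. In such bulk RNA, fewer cells with a transcript and less of it per cell cannot be told apart.

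The authors deposited 1 FPKM value per gene and group, fragments scaled by transcript length and by mapped depth. No value per library was used, so the spread between libraries is unknown and each level below stands without an SD. The steps between the lowest values corresponded to a depth of about 124 M fragments for the induced group and about 118 M for the non-induced group. Spi1 had 246 FPKM in induced cells, against 36.0 FPKM in non-induced cells, in the authors' deposited table (q = 0.000287), and whether that value counts an introduced copy is not stated. Among 12 pro-B cell markers, 8 of the 11 tested rose (72.7%, against 19.0% of all tested genes) and 0 fell. Il7r was at 142 FPKM in induced cells and 43.5 FPKM in non-induced cells, and Igll1 at 1083 and 538 FPKM. Rag1, also among those that rose, was at only 0.434 and 0.00348 FPKM. Cd79a, which did not pass q under 0.05, was at 646 FPKM in induced cells and 596 FPKM in non-induced cells, and Kit was listed at 0 in both groups. Macrophage and granulocyte markers, 10 in the table, summed to 16.5 FPKM in induced cells and 0.378 FPKM in non-induced cells. Lyz2 made up 15.2 FPKM of the first sum and 0.361 FPKM of the second, and Csf3r, Elane, S100a8 and S100a9 were at 0 in each group. Cd14 was at 0.995 FPKM in induced cells and 0 in non-induced cells and rose (Cuffdiff q = 0.000287). The untested Csf1r (0.192 and 0 FPKM), Itgam (0.151 and 0.0133 FPKM) and Emr1 (0.0512 and 0 FPKM) were higher in induced cells. Mpo, also untested, was lower there (0 and 0.00358 FPKM). The part of this marker shift in the changes of autophagy genes was not tested. Of the 6 T cell markers in the table, Cd3e and Cd4 were listed at 0 in both groups, and Cd3d was at 0.164 FPKM in induced cells and 0.294 FPKM in non-induced cells. Lat, an adaptor of T cell receptor signalling, was at 208 FPKM in induced cells and 240.3 FPKM in non-induced cells and fell (log2 -0.21, interval -0.49 to 0.07, q = 0.0348, authors' deposited table).

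As background, autophagy starts when the ULK1 kinase complex is released from inhibition by mTORC1, the growth kinase complex that senses nutrients. A lipid kinase complex around PIK3C3 then marks the forming membrane with phosphatidylinositol 3-phosphate (PI3P). Ubiquitin-like conjugation attaches ATG8 proteins (the LC3 and GABARAP families) to that membrane, where cargo receptors bind them. In the B lineage, autophagy is known for its need in plasma cells and memory B cells.

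Most of the autophagy machinery differed little between the groups. A gene is said to rise, to fall or to be called where it was among the genes tested by the authors and had a deposited q-value under 0.05. So defined, 4 of the 37 tested genes rose (10.8%) and 1 fell (2.70%) in the authors' deposited table. Among all 10657 tested genes, 35.1% were called, 19.0% higher and 16.1% lower. The genes that rose were Atg101, Uvrag, Atg10 and Gabarap, and the gene that fell was Optn. The median log2 change of the tested autophagy genes was 0.04, against -0.01 over all tested genes. At an unadjusted p-value under 0.05, 8 of the 37 genes were higher and 3 were lower in the authors' deposited table, against 22.0% higher and 20.4% lower over all tested genes. A q-value above 0.05 does not show that a level was the same, so the intervals below give the sizes that the data allow.

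The error of each change was read from the authors' deposited table as the log2 change divided by the test statistic, and is called the implied standard error here. It was 0.15 at the median of the tested autophagy genes, with a range of 0.12 to 0.76. Intervals given below are 95% normal intervals from these standard errors. Of the 32 tested genes without a call, 29 had an interval that lay wholly within 1.5-fold in both directions. The exceptions were Atg4a, Atg4c and Vmp1. Among the other pathway genes described below, 54 of the 56 tested genes without a call had an interval within those bounds. The share is therefore not particular to the listed genes. The change was within 1.2-fold for 86.5% of the 37 genes, against 66.8% of all tested genes.

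Stricter calls left fewer of these genes. At a q-value under 0.01, 3 rose and 1 fell, against 14.8% higher and 11.1% lower over all tested genes. With p-values read from the test statistic as a normal deviate, 3 were called in either direction (Atg101, Uvrag and Optn), against 15.2% over all tested genes. With the q-value under 0.05 and at least 1.5-fold required, 0 rose and 1 fell, against 6.34% and 3.85% over all tested genes by Cuffdiff. At an unadjusted p-value under 0.05 and that fold, 0 were higher. Rubcn, kept apart from these counts, passed that fold (1.57-fold higher, Cuffdiff q = 0.000287). Among genes with a mean FPKM of at least 5, where Optn drops out, 3 rose and 0 fell by Cuffdiff, against 17.7% and 15.1%, and 2 were lower at an unadjusted p-value under 0.05.

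**Figure D1:**
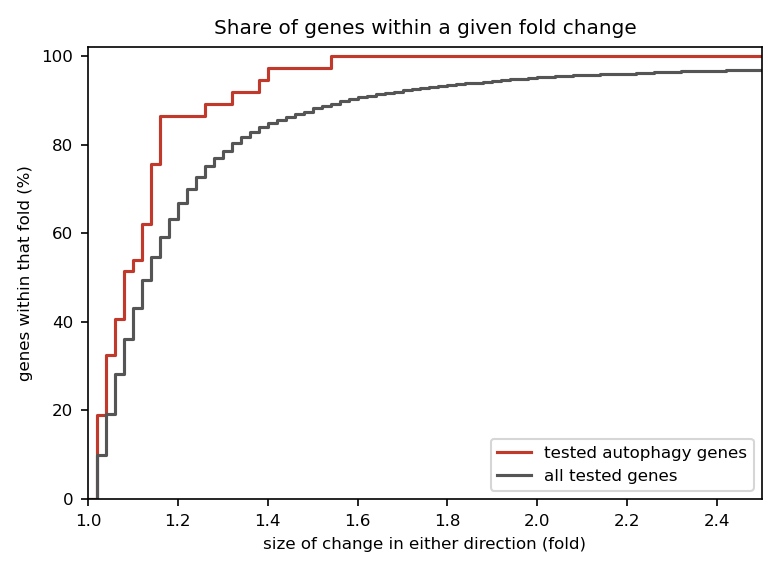
Share of genes (%, vertical axis) whose FPKM differed between induced and non-induced cells by no more than the fold on the horizontal axis, in either direction, for the 37 tested autophagy genes (red) and all 10657 tested genes (grey). At 1.5-fold the red line has reached 97.3% and the grey line 88.2%; the groups have 1 value per gene, so the lines carry no error.

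The levels spanned a wide range and kept nearly the same order in both groups. FPKM is per transcript length, so levels can be set beside each other between genes. Gabarap was the highest, at 203 FPKM in induced cells and 176 FPKM in non-induced cells. Becn1 (76.7 and 77.5 FPKM), Sqstm1 (74.0 and 71.4 FPKM), Tax1bp1 (71.3 and 67.1 FPKM), Map1lc3b (54.9 and 48.8 FPKM) and Atg3 (46.1 and 44.8 FPKM) followed at the same ranks in induced and in non-induced cells. At 10 FPKM or more stood 25 of the 39 genes in induced cells and 26 in non-induced cells. The lowest were Atg4c (0.292 and 0.257 FPKM), Wipi1 (0.114 and 0.0823 FPKM) and Map1lc3a (0.0303 and 0.0221 FPKM), again in induced and in non-induced cells. For a transcript of 1 kb, 1 fragment was worth about 0.00809 FPKM in the induced group and 0.00844 FPKM in the non-induced group, so the Map1lc3a values rest on a few fragments. The authors did not test Wipi1 or Map1lc3a.

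**Figure D2:**
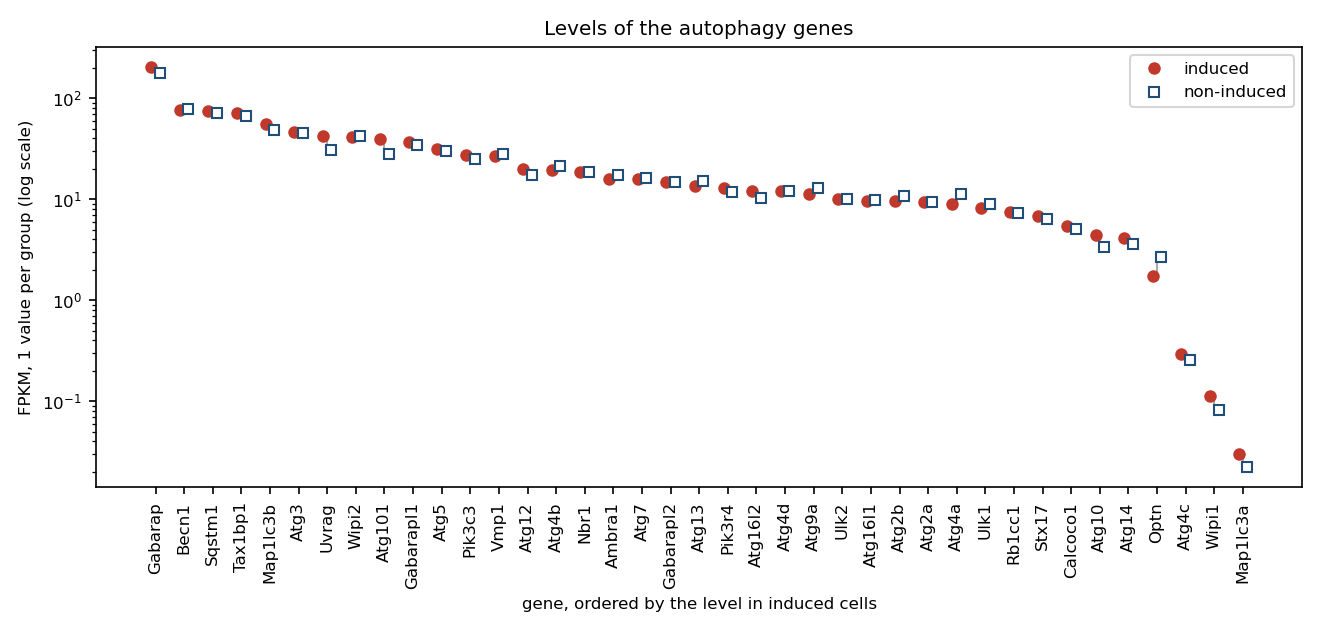
FPKM (log scale, vertical axis) of the 39 autophagy genes found by symbol, 1 value per group, in induced cells (filled circles) and non-induced cells (open squares), ordered by the level in induced cells. The symbols of most genes nearly coincide from Gabarap at 203 and 176 FPKM down to Map1lc3a at 0.0303 and 0.0221 FPKM, with visible gaps at Uvrag, Atg101, Atg10 and Optn.

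In the ULK1 initiation complex, 1 of the 5 tested genes rose and none of the others was called. Atg101, which encodes a partner that stabilises ATG13, was at 39.1 FPKM in induced cells and 28.3 FPKM in non-induced cells. Its log2 change in the authors' deposited table was 0.47 (implied standard error 0.13, interval 0.21 to 0.72, q = 0.000287). Atg101 is a protein-coding gene of chromosome 15 (101284272 to 101290945, plus strand, mm10), and its row shared its locus with no other row. Atg13, its binding partner, was at 13.4 FPKM in induced cells and 15.0 FPKM in non-induced cells and was not called (log2 -0.17, interval -0.45 to 0.12, q = 0.111, authors' deposited table). The Atg101 level was 2.93 times that of Atg13 in induced cells and 1.88 times in non-induced cells. The kinase genes Ulk1 (8.1 and 9.04 FPKM in induced and non-induced cells) and Ulk2 (10.0 and 9.99 FPKM) were not called in the authors' deposited table. Rb1cc1, the scaffold FIP200, stood at 7.48 and 7.26 FPKM in induced and non-induced cells and was not called either.

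The class III phosphatidylinositol 3-kinase forms alternative complexes, and the gene that rose here belongs to one of them. PIK3C3 (VPS34), PIK3R4 (VPS15) and Beclin 1 form a shared core, which ATG14 directs to autophagosome formation and UVRAG to endosomes and later steps. Uvrag was at 41.9 FPKM in induced cells and 30.6 FPKM in non-induced cells, with a log2 change of 0.45 (interval 0.18 to 0.73, q = 0.000287) in the authors' deposited table. It lies on the minus strand of chromosome 7 at 98885021 to 99141141 (mm10, protein-coding), a span that also holds annotated genes such as Gm45188 and Gm33882. Atg14 stood at 4.16 FPKM in induced cells and 3.59 FPKM in non-induced cells and was not called (log2 0.21, interval -0.11 to 0.53, q = 0.0798, authors' deposited table). The Uvrag level was 10.1 times that of Atg14 in induced cells and 8.51 times in non-induced cells.

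The core genes of the lipid kinase were not called. Becn1 had a log2 change of -0.02 (interval -0.32 to 0.29), Pik3c3 of 0.13 (interval -0.16 to 0.41) and Pik3r4 of 0.14 (interval -0.14 to 0.42) in the authors' deposited table. Pik3c3 was at 27.1 FPKM in induced cells and 24.8 FPKM in non-induced cells, and Pik3r4 at 13.0 FPKM in induced cells and 11.8 FPKM in non-induced cells. Ambra1, which binds Beclin 1, was at 15.9 FPKM in induced cells and 17.2 FPKM in non-induced cells. The row of the older symbol 1700021K19Rik, which is Rubcn, had the largest change of all 40 listed genes. Rubcn encodes Rubicon, an inhibitor that binds the complex with UVRAG. It was at 12.7 FPKM in induced cells and 8.07 FPKM in non-induced cells, a log2 change of 0.65 (interval 0.36 to 0.94, q = 0.000287) in the authors' deposited table. With Rubcn counted, 5 of 38 tested genes rose and 1 fell.

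The promoters of genes that changed are shown for the letters they hold, because the induced factor binds DNA. GAGGAA, a core of the motif bound by PU.1, and CACGTG, the E-box core of the motif bound by TFEB and TFE3, were searched on both strands in the 250 bases before each RefSeq start (GRCm38.p6). The motifs do not overlap in their letters. GAGGAA was found in 8 of 41 windows of 34 autophagy genes (19.5%) and in 23.3% of all 32851 windows. CACGTG was found in 4 of the 41 windows (9.76%) and in 6.02% of all windows. The windows with GAGGAA belonged to Atg101, Atg2b, Atg3, Atg5, Pik3r4, Tax1bp1 and Vmp1, and those with CACGTG to Atg3, Atg5, Atg7 and Rubcn. Of these genes, Atg2b, Atg3, Atg5, Atg7, Pik3r4, Tax1bp1 and Vmp1 were not called. Of the genes that were called, Atg101 held GAGGAA and Rubcn held CACGTG, and Uvrag, Atg10, Gabarap and Optn held neither motif in these windows. Their 250 bases are printed 5′ to 3′ on the strand of the gene for Atg101 (chr15:101284051-101284300, plus strand), for Rubcn at the start site used in the authors' locus (chr16:32868367-32868616, minus strand) and for Optn, the gene that fell (chr2:5064118-5064367, minus strand). Capitals mark a motif match, which in Atg101 is GAGGAA read on the opposite strand as TTCCTC and in Rubcn is CACGTG.
Atg101: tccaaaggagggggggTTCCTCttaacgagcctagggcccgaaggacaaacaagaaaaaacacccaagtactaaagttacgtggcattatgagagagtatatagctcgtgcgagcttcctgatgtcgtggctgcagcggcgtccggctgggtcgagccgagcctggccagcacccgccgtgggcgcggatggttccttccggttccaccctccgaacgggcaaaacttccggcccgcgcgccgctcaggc
Rubcn: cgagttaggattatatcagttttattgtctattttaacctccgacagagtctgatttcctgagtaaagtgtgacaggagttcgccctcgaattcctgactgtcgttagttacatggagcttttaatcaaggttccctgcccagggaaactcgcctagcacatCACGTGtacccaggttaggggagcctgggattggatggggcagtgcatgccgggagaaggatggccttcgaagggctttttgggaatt
Optn: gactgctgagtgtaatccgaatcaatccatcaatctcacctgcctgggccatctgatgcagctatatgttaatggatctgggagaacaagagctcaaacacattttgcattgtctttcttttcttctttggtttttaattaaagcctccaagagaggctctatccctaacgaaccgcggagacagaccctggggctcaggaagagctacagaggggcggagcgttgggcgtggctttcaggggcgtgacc
A match in these windows is a description of letters, and binding was not measured in these data.

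Genes acting on PI3P, on lipid transfer and on lipid scrambling had no Cuffdiff call among 5 tested members. WIPI2, which reads PI3P and recruits ATG16L1, was the highest of them. Wipi2 stood at 41.0 FPKM in induced cells and 42.4 FPKM in non-induced cells (log2 -0.05, interval -0.32 to 0.23, authors' deposited table). The lipid transfer genes Atg2a (9.37 and 9.29 FPKM) and Atg2b (9.51 and 10.7 FPKM, in induced and non-induced cells) were not called. Atg9a, the scramblase of the seed vesicles, was at 11.3 FPKM in induced cells and 12.8 FPKM in non-induced cells (log2 -0.17, q = 0.121, authors' deposited table). At an unadjusted p-value under 0.05, 1 of these 5 genes, Atg2b, was lower in the authors' deposited table (q = 0.118). Vmp1, a scramblase of the endoplasmic reticulum, was at 26.9 FPKM in induced cells and 28.0 FPKM in non-induced cells, with an interval of -1.43 to 1.31. Its row shared a locus with 14 other rows, Ptrh2 among them, and its implied standard error was 0.70.

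In the conjugation system 1 of 7 tested genes rose (14.3%, against 19.0% of all tested genes). Atg10, the E2-like enzyme that hands ATG12 to ATG5, was at 4.37 FPKM in induced cells and 3.35 FPKM in non-induced cells. Its log2 change was 0.38 with an interval of 0.06 to 0.71 (q = 0.000287) in the authors' deposited table. Atg10 lies on the minus strand of chromosome 13 at 90935356 to 91223968 (mm10, protein-coding), a span that also holds the pseudogene Gm17450. With p-values taken from the test statistic as a normal deviate, Atg10 was not called (q = 0.112). Atg3, the E2-like enzyme that acts on ATG8 proteins, stood at 46.1 FPKM in induced cells and 44.8 FPKM in non-induced cells and was not called (q = 0.753, authors' deposited table). Atg7, the E1-like enzyme that serves both branches, was at 15.8 FPKM in induced cells and 16.1 FPKM in non-induced cells (log2 -0.03, interval -0.32 to 0.27, authors' deposited table).

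The complex that completes the conjugation is made of ATG12, ATG5 and ATG16L1. Atg5 was at 31.1 FPKM in induced cells and 29.9 FPKM in non-induced cells, and Atg16l1 at 9.57 FPKM in induced cells and 9.90 FPKM in non-induced cells. Atg12 was at 19.8 FPKM in induced cells and 17.4 FPKM in non-induced cells, with a log2 change of 0.19 (q = 0.0785) in the authors' deposited table. Atg16l2, a paralogue of Atg16l1, was at 11.9 FPKM in induced cells and 10.3 FPKM in non-induced cells (log2 0.21, q = 0.0693, authors' deposited table). Neither Atg12 nor Atg16l2 passed the threshold, and their intervals reached to -0.09 and -0.08.

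ATG4 proteases trim ATG8 proteins before conjugation and also release them from membranes. None of the 4 was called by the authors' Cuffdiff test, and at an unadjusted p-value under 0.05 the count was also 0 in each direction. Atg4b stood at 19.4 FPKM in induced cells and 21.4 FPKM in non-induced cells, with an interval of -0.42 to 0.14. Atg4d stood at 11.9 FPKM in induced cells and 12.1 FPKM in non-induced cells, and its interval was wider, -0.53 to 0.50. The interval of Atg4c, at 0.292 and 0.257 FPKM in induced and non-induced cells, was -0.55 to 0.92. The row named Atg4a was at 9.01 FPKM in induced cells and 11.2 FPKM in non-induced cells in the authors' deposited table, with an interval of -1.81 to 1.19. It is 1 of 10 rows with the same locus. Whether it counts Atg4a or another gene is not known, and it stays in the counts. Its locus lies on chromosome 3, where GENCODE M21 places the retrogene Atg4a-ps (103643954 to 103646068, minus strand), whereas the gene Atg4a lies on chromosome X at 140956907 to 141164270 (mm10).

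In the ATG8 family the most abundant member rose. Gabarap was at 203 FPKM in induced cells and 176 FPKM in non-induced cells, a log2 change of 0.21 (q = 0.0390) in the authors' deposited table. Its interval of -0.03 to 0.44 reached below 0, while the Cuffdiff p-value was smaller than a normal reading of the same statistic. Read that way, Gabarap was not called (q = 0.297). Gabarap is a protein-coding gene of chromosome 11 (69991143 to 69994951, plus strand, mm10).

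The other ATG8 genes were not called. Map1lc3b, the usual marker LC3B, was at 54.9 FPKM in induced cells and 48.8 FPKM in non-induced cells (log2 0.17, interval -0.09 to 0.43, q = 0.0985, authors' deposited table). Gabarapl1 stood at 36.5 FPKM in induced cells and 34.6 FPKM in non-induced cells, and Gabarapl2 at 14.9 FPKM in induced cells and 14.6 FPKM in non-induced cells. All 4 tested ATG8 genes had a positive log2 change in the authors' deposited table, from 0.03 for Gabarapl2 to 0.21 for Gabarap. The interval of each included 0, and the median log2 change over all tested genes was -0.01. The family summed to 309.6 FPKM in induced cells and 274 FPKM in non-induced cells, and Gabarap made up 65.6% of that sum in induced cells and 64.3% in non-induced cells. Map1lc3b made up 17.7% in induced cells and 17.8% in non-induced cells.

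Among the cargo receptors the least abundant one fell. Optn encodes optineurin, which links ubiquitin-tagged cargo such as damaged mitochondria to ATG8 proteins. It was at 1.74 FPKM in induced cells and 2.67 FPKM in non-induced cells, a log2 change of -0.61 (interval -0.96 to -0.27, q = 0.000287) in the authors' deposited table. Optn lies on the minus strand of chromosome 2 at 5020642 to 5064051 (mm10, protein-coding), and the annotated gene 4930551O13Rik lies within it on the opposite strand. The use of strand in counting is not stated, so reads of the pair cannot be told apart. It made up 1.02% of the summed receptor FPKM in induced cells and 1.62% in non-induced cells.

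The abundant receptors were not called. Sqstm1, which encodes p62, was at 74.0 FPKM in induced cells and 71.4 FPKM in non-induced cells, with a log2 change of 0.05 (interval -0.23 to 0.33, q = 0.685) in the authors' deposited table. Tax1bp1 was at 71.3 FPKM in induced cells and 67.1 FPKM in non-induced cells (interval -0.20 to 0.37). Nbr1 stood at 18.4 FPKM in both groups (interval -0.31 to 0.30), and Calcoco1, a receptor for the endoplasmic reticulum, at 5.36 FPKM in induced cells and 5.04 FPKM in non-induced cells. Stx17, the SNARE that autophagosomes use to fuse with lysosomes, was at 6.87 FPKM in induced cells and 6.42 FPKM in non-induced cells and was not called (log2 0.10, interval -0.20 to 0.39, q = 0.412, authors' deposited table).

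**Figure D3:**
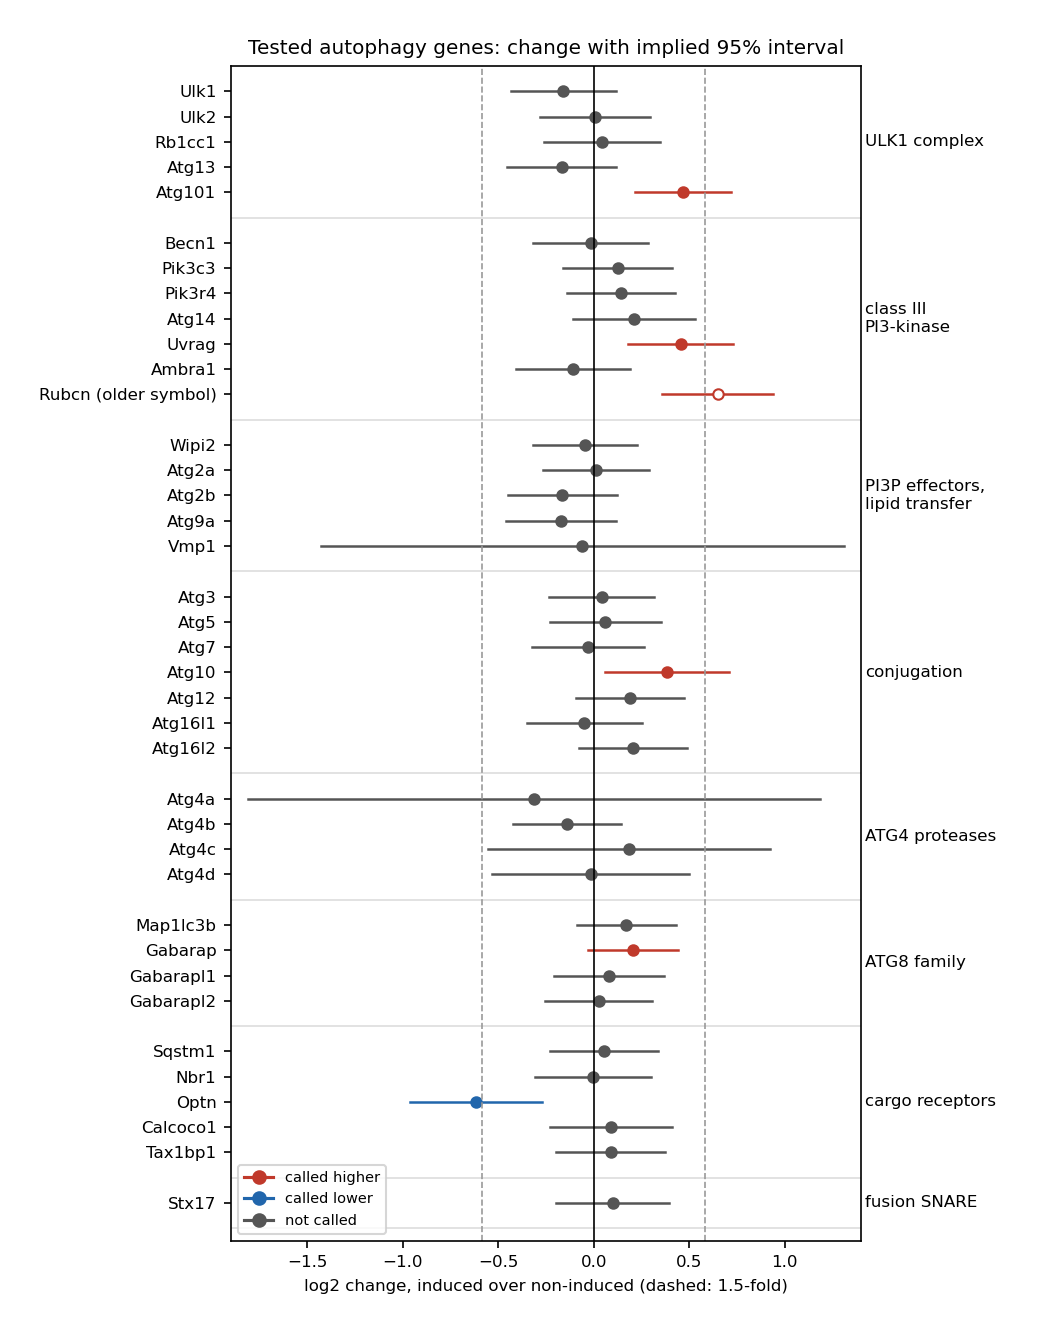
Log2 change of FPKM, induced over non-induced (horizontal axis), of the tested autophagy genes grouped by role, with bars for the 95% interval from the implied standard error. Red marks genes called higher, blue a gene called lower and grey genes not called; the open circle is Rubcn, found under an older symbol, and the widest bars are those of Atg4a and Vmp1.

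Other genes of the pathway were taken from 6 lists. Of their 86 tested genes 19 rose (22.1%) and 11 fell (12.8%), close to the 19.0% and 16.1% of all tested genes. Called in either direction were 33.3% of the mTORC1 list, 12.5% of the AMPK list and 33.3% of the fusion list, against 35.1% of all tested genes. The shares were 37.5% for the transcription factors, 41.7% for the further early factors and 46.2% for the selective receptors. Of 27 tested genes of mTORC1 and its inputs, 4 rose and 5 fell. Mtor, the kinase itself, was at 126 FPKM in induced cells and 71.8 FPKM in non-induced cells, with a log2 change of 0.81 (interval 0.53 to 1.09, q = 0.000287) in the authors' deposited table. Its row shares a locus with 1 other row. Lamtor1 (log2 0.37) and Fnip1 (0.24), which act in nutrient sensing at the lysosome, also rose in the authors' deposited table, although the interval of Fnip1 reached to -0.05. Ddit4, which encodes the mTORC1 inhibitor REDD1, fell (log2 -0.47), and so did the Rag GTPase genes Rraga (-0.32) and Rragd (-0.32), in the authors' deposited table.

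AMPK, the energy-sensing kinase, had 1 of 8 tested genes higher (12.5%, against 19.0% of all tested genes). That was the upstream kinase gene Camkk2 (16.8 FPKM in induced cells and 12.9 FPKM in non-induced cells). Transcription factors of autophagy and lysosome genes were called in 3 of 8 cases, all higher (37.5%) and 0 lower by Cuffdiff. Over all tested genes 19.0% were called higher and 16.1% lower. At an unadjusted p-value under 0.05 the counts for these factors were also 3 and 0, against 22.0% higher and 20.4% lower over all tested genes. Foxo1 was at 48.6 FPKM in induced cells and 32.5 FPKM in non-induced cells. Tfe3 was at 12.8 FPKM in induced cells and 9.77 FPKM in non-induced cells (log2 0.39, interval 0.08 to 0.69), and Tfeb at 29.8 FPKM in induced cells and 25.01 FPKM in non-induced cells (log2 0.25, interval -0.02 to 0.53), in the authors' deposited table. Of 12 tested further early factors, 2 rose and 3 fell. Tecpr1, which binds the ATG12-ATG5 conjugate, fell the most of these, to 12.8 FPKM in induced cells, against 21.1 FPKM in non-induced cells (log2 -0.73, interval -1.004 to -0.45, authors' deposited table). Tecpr1 was placed in this list and not with the fusion genes by general knowledge, and the step at which it acts was not tested. Zfyve1 (log2 0.35) and Snx30 (0.27) rose, and Trp53inp2 (-0.36) and Trp53inp1 (-0.22) fell in the authors' deposited table, with intervals that included 0 for Snx30 (-0.01 to 0.55) and Trp53inp1 (-0.51 to 0.07).

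Selective receptors outside the 40 listed genes were called in 6 of 13 cases, 4 higher (30.8%) and 2 lower (15.4%). The shares over all tested genes were 19.0% and 16.1%. The receptor gene Ccpg1 (log2 0.55), the mitophagy kinase gene Pink1 (0.40) and the mitochondrial receptor gene Fundc1 (0.38) rose in the authors' deposited table. The mitochondrial receptor gene Bnip3 (-0.34) and the endoplasmic reticulum receptor gene Tex264 (-0.29) fell there, the interval of Tex264 reaching to 0.01. Of 18 tested genes of autophagosome-lysosome fusion, 5 rose (27.8%) and 1 fell (5.56%), with Tecpr1 not counted among them. Vps18, a core subunit of the HOPS tethering complex, was at 14.0 FPKM in induced cells and 8.18 FPKM in non-induced cells (log2 0.77, interval 0.50 to 1.05, authors' deposited table). Vamp8, a SNARE partner of STX17, was at 164 FPKM in induced cells and 110 FPKM in non-induced cells (log2 0.58, interval 0.34 to 0.82, authors' deposited table). Epg5, a tether of the fusion step, was at 17.8 FPKM in induced cells and 11.9 FPKM in non-induced cells, and Tbc1d5 fell (log2 -0.24, interval -0.54 to 0.06), in the authors' deposited table. Whether these lists differ from the 40 listed genes in their share of calls was not tested.

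**Figure D4:**
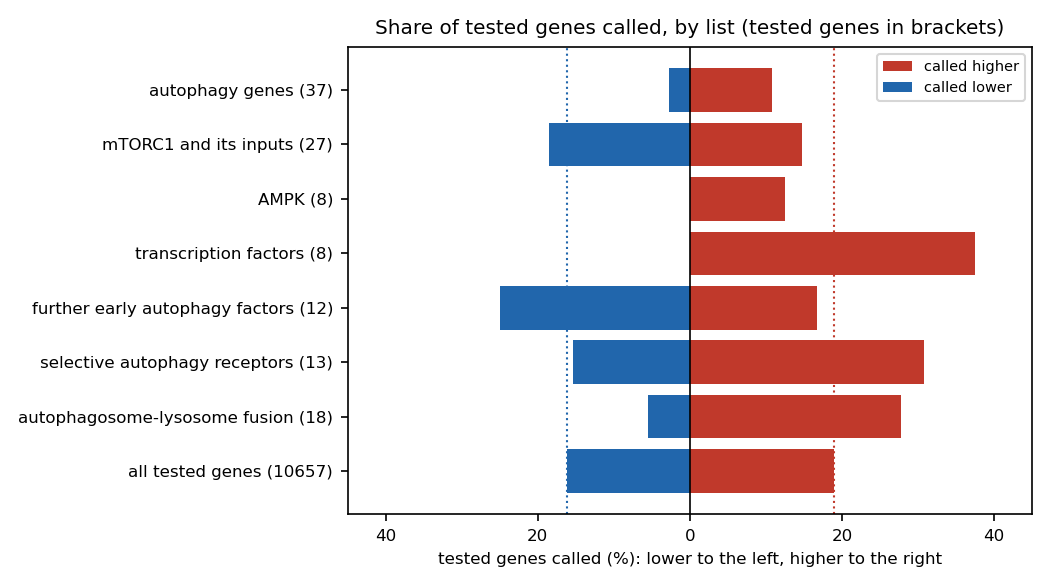
Share of tested genes that the authors called (%, horizontal axis), higher in induced cells to the right in red and lower to the left in blue, for the autophagy genes, 6 further lists and all tested genes, with the number tested in brackets and dotted lines at the shares over all tested genes. The autophagy genes have bars of 10.8% and 2.70%, against 19.0% and 16.1% for all tested genes; most of the other lists hold fewer than 20 genes, so 1 gene moves their bars by several percent.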

How the data were processed

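Stranded mRNA libraries were made from column-purified RNA, per the labels' protocols. The submitters' processing notes list Trim Galore 0.2.8.1, TopHat2 2.0.9, Cufflinks, Cuffdiff 2.1.1 and build mm10. Neither the annotation nor the use of strand in counting is stated there or in the labels. The authors deposited 1 FPKM value per gene and group, the log2 change, the test score (test statistic), the p-value and the q-value. Deposited values were taken unchanged, with no count test. The authors tested 10657 rows, and the smallest p-value, 5e-05, gave q = 0.000287. The q-values were recomputed by the Benjamini-Hochberg method and differed by at most 5.15e-07.

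Members and lists were chosen with earlier results of these data known. Every called member is given in full, and uncalled ones by level or interval. Of each further list up to 3 genes per direction are named, the largest changes at 1 FPKM or more. Older symbols and promoters came from RefSeq (GRCm38.p6), coordinates from GENCODE M21. Depth was estimated from low FPKM values of genes with 1 transcript: 66.3% (induced) and 71.1% (non-induced) lay within 0.15 of a whole fragment, against 30% for evenly spread values. Alternatives were stricter calls, normal p-values, minimum FPKM of 1 or 5, pseudocounts of 0.1 and 1, centring, and rows sharing no locus. The normal p-values, their adjustment and the intervals were tested on simulated data; the Cuffdiff calls were not. Python 3.11.15, pandas 2.3.3 and SciPy 1.17.1 were used.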

Additional observations from a re-analysis of the deposited data

How the results depend on the processing

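No paired analysis was possible because the deposited table holds 1 value per gene and group, and for the same reason no replicate could be left out. Of the 4 autophagy genes called higher, 2 stayed called when the test statistic was read as a normal deviate (Atg101 and Uvrag). With at least 1.5-fold required, 0 were called higher, and at an unadjusted p-value under 0.05 in Cuffdiff the count at that fold was also 0. Both counts leave out Rubcn, which was 1.57-fold higher (Cuffdiff q = 0.000287). With a mean FPKM of at least 5, 0 were called lower, since Optn falls below that level; at an unadjusted p-value under 0.05, 2 genes were lower there. For the 86 other pathway genes, 19 higher and 11 lower, the normal reading gave 12 higher (14.0%) and 2 lower (2.33%). Over all tested genes, 35.1% were called in either direction by Cuffdiff and 15.2% by the normal reading. The fold minimum gave 3 higher (3.49%) and 1 lower (1.16%), against 6.34% and 3.85% over all tested genes. At q under 0.01, 7 were lower (8.14%), against 11.1% over all tested genes. The other counts stayed within 1.5 times. The median log2 change of the autophagy genes lay between 0.03 and 0.05 under every alternative run, and Optn's change was -0.42 with a pseudocount of 1 FPKM. Without the Atg4a row, and with Rubcn under its older symbol, both chosen after seeing the data, the median was 0.04. Depth per library is unknown, so genes at low FPKM such as Map1lc3a cannot be judged.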

Other observations

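Some genes of the wider pathway changed at low levels or were found under older symbols, and they were chosen here after their values were seen. Castor1, the arginine sensor of mTORC1, stood under its older symbol Gatsl3 at 2.31 FPKM in induced cells and 4.30 FPKM in non-induced cells, a log2 change of -0.89 (interval -1.22 to -0.57, q = 0.000287) in the authors' deposited table. Deptor, which encodes an mTOR-binding inhibitor, rose to 0.374 FPKM in induced cells, against 0.201 FPKM in non-induced cells (log2 0.89, interval 0.42 to 1.37, authors' deposited table). Wdfy3, which encodes the large scaffold ALFY of selective autophagy, rose to 0.365 FPKM in induced cells, against 0.251 FPKM in non-induced cells (log2 0.54, authors' deposited table). Among the fusion genes Stx7 (log2 0.42) and Snap29 (0.46), both SNARE genes, rose in the authors' deposited table, and the Snap29 row shares its locus with 2 other rows (interval -0.15 to 1.07). Sesn1 (-0.26) and Rragb (-0.21), both in the mTORC1 list, also fell in the authors' deposited table (intervals -0.55 to 0.04 for Sesn1 and -0.50 to 0.07 for Rragb, both including 0).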
